A study of Mus musculus with 34 samples.

Results

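The 41 mouse genes that encode collagen chains were examined for open chromatin, out of 21631 protein-coding genes of the GRCm38.p6 (mm10) annotation. A gene entered by its symbol alone, and its data are the ATAC-seq summits inside its annotated interval or within 50 kb of it. A summit marks where the signal of a called peak, or of a part of one, was highest, and the count of summits per gene is the measure used throughout. The genes were divided by the chain they encode into 11 fibrillar collagens (Col1, Col2, Col3, Col5, Col11, Col24 and Col27), 8 basement membrane collagens (Col4, Col15 and Col18) and 22 other collagens.

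ATAC-seq, in which the Tn5 transposase cuts and tags accessible DNA, was done in mouse embryonic fibroblasts (MEF) and in embryoid bodies (EB, cell clumps in which mouse embryonic stem cells begin to differentiate) with a doxycycline-inducible Etv2, an ETS transcription factor of the endothelial and blood lineages. In all, 34 samples make up 17 groups of 2. Fibroblasts with no knockdown (iHA-Etv2 MEF in the labels) were taken without doxycycline and after 1, 2 and 7 days with it, and the day 7 cells also as a fraction sorted for Flk1, the receptor encoded by Kdr. MEF with knockdown of Brg1 (gene Smarca4, a motor protein of SWI/SNF remodelling complexes) were sampled at day 0, and again on days 1, 2 and 7 either with doxycycline or with none. EB labelled D25 and 12 h were induced and sorted for Flk1, induced and unsorted, or uninduced. EB labelled Brg1-floxed, all with doxycycline and at day 4, were given or not given 4-hydroxytamoxifen (4OHT). The labels do not name the knockdown method or a recombinase, or say whether any line is a single clone. For the 15 groups other than the floxed EB, both samples share 1 summit list, so those comparisons have no replicate error and no p-value, and nothing says that the 2 samples came from separate cultures. The lists of the 4 floxed samples are separate, and with 2 against 2 an exact permutation test cannot give a two-sided p below 0.333.

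Collagens are triple helices of 3 alpha chains. Fibrillar collagens form the tension-bearing fibres that fibroblasts deposit, type IV collagen forms the sheet of basement membranes, under endothelium among others, and types XV and XVIII are proteoglycan collagens of those membranes whose C-terminal fragments, restin and endostatin, act on vessels. Etv2 drives fibroblasts towards an endothelial-like state, so both a matrix programme of the starting cell and a matrix programme of vessels fall among these genes.

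The sequences around 5 transcription starts that behave differently in the lists are shown first, from 250 bases before to 50 after the RefSeq start on build GRCm38.p6, read 5′ to 3′ on the gene's strand. Capitals mark letters of the searched motifs on either strand: GGAA, the core letters for ETS factors, CCGGAA, a longer ETS match that overlaps the core by containing it, TGANTCA, the letters for AP-1, CCAAT, those for NF-Y, TATAAA, those for the TATA-binding protein, and GGGCGG, those for Sp1. Col1a2, encoding the second chain of type I collagen, is at chr6:4505368-4505667 on the plus strand. Col3a1, the type III chain of pliable fibrils, is at chr1:45311288-45311587 on the plus strand. Col4a1, the main type IV chain, is at chr8:11312777-11313076 on the minus strand and is read away from Col4a2, which starts beside it. Col6a3, a chain of the pericellular type VI microfibrils, is at chr1:90843922-90844221 on the minus strand. Col13a1, a transmembrane collagen, is at chr10:61979059-61979358 on the minus strand.
Col1a2: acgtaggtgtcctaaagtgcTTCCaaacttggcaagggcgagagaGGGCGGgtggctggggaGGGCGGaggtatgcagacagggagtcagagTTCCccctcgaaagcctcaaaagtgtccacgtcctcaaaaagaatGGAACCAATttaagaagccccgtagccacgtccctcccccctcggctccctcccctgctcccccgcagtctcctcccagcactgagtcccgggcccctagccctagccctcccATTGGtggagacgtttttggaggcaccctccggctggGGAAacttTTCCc
Col3a1: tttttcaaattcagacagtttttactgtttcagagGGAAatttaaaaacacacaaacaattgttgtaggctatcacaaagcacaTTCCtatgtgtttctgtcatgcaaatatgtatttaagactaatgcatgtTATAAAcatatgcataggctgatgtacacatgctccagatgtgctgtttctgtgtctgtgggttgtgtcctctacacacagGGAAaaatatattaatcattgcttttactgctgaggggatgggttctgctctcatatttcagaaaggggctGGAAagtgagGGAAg
Col4a1: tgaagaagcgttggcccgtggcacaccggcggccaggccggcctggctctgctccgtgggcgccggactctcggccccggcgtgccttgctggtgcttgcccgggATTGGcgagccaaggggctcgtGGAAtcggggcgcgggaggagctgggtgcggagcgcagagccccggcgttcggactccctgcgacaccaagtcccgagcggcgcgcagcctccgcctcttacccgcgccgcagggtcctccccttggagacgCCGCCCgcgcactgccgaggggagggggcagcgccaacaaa
Col6a3: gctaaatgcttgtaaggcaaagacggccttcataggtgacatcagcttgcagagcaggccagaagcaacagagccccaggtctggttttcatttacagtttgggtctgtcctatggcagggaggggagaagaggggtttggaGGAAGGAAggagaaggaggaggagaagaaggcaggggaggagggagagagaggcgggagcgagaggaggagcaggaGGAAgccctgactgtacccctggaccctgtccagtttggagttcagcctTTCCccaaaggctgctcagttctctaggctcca
Col13a1: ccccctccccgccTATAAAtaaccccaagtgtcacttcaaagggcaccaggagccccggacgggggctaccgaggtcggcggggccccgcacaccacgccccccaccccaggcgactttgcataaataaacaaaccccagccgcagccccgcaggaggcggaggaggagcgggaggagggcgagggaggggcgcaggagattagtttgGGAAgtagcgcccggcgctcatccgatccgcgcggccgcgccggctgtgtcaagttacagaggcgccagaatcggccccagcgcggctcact
Among 35 promoter entries of 32 collagen genes, GGAA was found in 35, against 96.0% of all 32619 promoters, and CCGGAA in 0, against 4892 of all promoters. GGGCGG was found in 20 (57.1%), against 35.9% of all promoters, and in 6 of 8 fibrillar entries. CCAAT was found in 12 (34.3%, against 37.6%), TATAAA in 5 (14.3%, against 13.7%) and TGANTCA in 1 (2.86%, against 7.85%). These are matches of letters in a 300-base window and show no binding. The genes Col1a1, Col2a1, Col4a3, Col5a2, Col9a3, Col12a1, Col14a1, Col22a1 and Col26a1 have no entry in the promoter table and enter no count of starts.

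The lists hold between 11188 and 85498 summits, so counts per gene move with list length, and the number of collagen genes called in a comparison is given beside the share called among all genes. Of genes that are no collagen, Prrx1, a mesenchymal transcription factor, had 12, 2, 0 and 0 summits in MEF on days 0, 1, 2 and 7, and Pou5f1, a pluripotency factor, had 9 summits in Flk1-positive, 15 in induced and 12 in uninduced EB. Kdr had 4, 5, 1 and 0 summits in unsorted MEF on days 0, 1, 2 and 7, and 3 in Flk1-positive day 7 MEF. The 10 fibroblast markers together had 83, 52, 21 and 5 summits in MEF on days 0, 1, 2 and 7 and 19 in Flk1-positive MEF, and the 10 endothelial markers had 51, 47, 19 and 14, and 23. The endothelial markers thus had fewer summits in the longer-induced MEF lists, like the lists themselves, and the part of list length and of cell makeup in the collagen results was not tested. The 12 collagen genes Col9a1 and Col19a1, Col3a1 and Col5a2, Col4a1 and Col4a2, Col4a3 and Col4a4, Col4a5 and Col4a6, and Col6a1 and Col6a2 lie close enough for each pair to share summits. A window holds a median of 2 other protein-coding genes (0 to 7).

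Uninduced MEF had more summits than uninduced EB around 20 of the 41 genes, fewer around 18 and as many around 3, with a median difference of 0. Fewer were found at Col5a3, Col13a1, Col22a1 and Col26a1, among others. Col12a1 had 10 in MEF and 14 in EB, Col14a1 had 10 and 13, and Col16a1 had 8 and 10. By chain type, the fibrillar genes had a median of 11 summits in MEF and 7 in EB and the basement membrane genes 10 and 7, whereas the other collagens had 8 in MEF and 9.5 in EB. Col1a1, encoding the first chain of type I collagen, had 11 summits in MEF and 7 in EB, of which 2 and 1 lay inside the gene. Col1a2 had 11 in MEF and 3 in EB. Col3a1 had 8 in MEF and 4 in EB. Col5a1, whose chain nucleates type I fibrils, had 11 in MEF and 2 in EB. Col5a2, its partner, had 10 in MEF and 5 in EB. Type I, III and V collagens are the usual fibril mix of connective tissue, and each of their genes but Col5a3 leaned to MEF. Col5a3 had 4 summits in MEF and 17 in EB, and Col2a1, the cartilage fibril chain, had 12 in MEF and 7 in EB. Col6a3 had 11 in MEF and 1 in EB, and Col6a1 and Col6a2, which encode other type VI chains, had 8 each in MEF, against 3 and 1 in EB. Among basement membrane genes, Col4a1 had 15 summits in MEF and 3 in EB, Col4a2 had 27 and 9, and Col15a1 had 10 and 4, but Col18a1 had 10 in MEF and 17 in EB. The largest deficits in MEF were at Col5a3 and at Col22a1, a collagen of tissue junctions, with 2 in MEF and 15 in EB, followed by Col26a1 with 2 and 14.

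A gene was called higher or lower when the list with more summits had at least 4 and the counts differed at least 2-fold. Of 41 collagen genes tested, 11 were higher in MEF than in EB, against 8.68% of all genes, and 6 were lower, against 25.2%. By class, 4 of 11 fibrillar, 3 of 8 basement membrane and 4 of 22 other genes were higher, and 1, 0 and 5 were lower. The EB list is the longer one, and with both lists reduced to their 62028 highest-scoring summits, 18 of 41 were higher, against 18.1% of all genes, and 4 were lower, against 15%. Collagen windows held 348 of the 62028 summits of uninduced MEF (0.561%, exact Clopper-Pearson 95% interval 0.504% to 0.623%) and 333 of the 85498 of uninduced EB (0.389%, 0.349% to 0.434%). These intervals cover counting error only, and they do not overlap. For fibrillar genes the share was 0.163% in MEF (0.133% to 0.198%) and 0.0947% in EB (0.0752% to 0.118%), and for basement membrane genes 0.127% (0.101% to 0.159%) and 0.0643% (0.0485% to 0.0837%). For the other collagens the intervals overlapped, at 0.271% (0.231% to 0.315%) in MEF and 0.230% (0.199% to 0.265%) in EB. MEF and EB also differ in everything else about the cultures, so no single factor can be named for these differences.

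**Figure D1:**
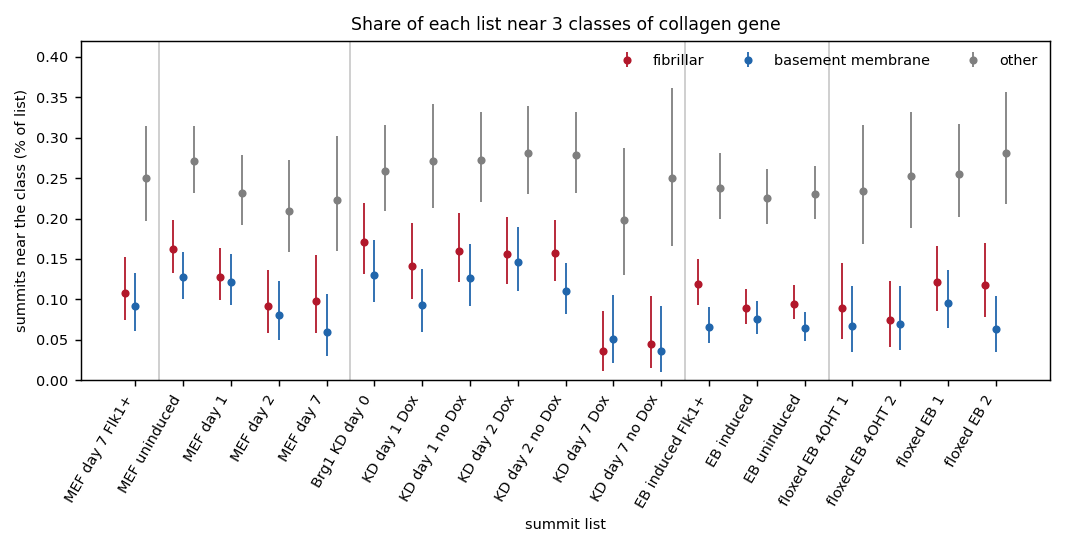
Share of all summits of each list (y axis, percent of the list) that lie inside or within 50 kb of fibrillar, basement membrane and other collagen genes, for the 19 summit lists (x axis). Points are shares and bars exact 95% intervals for counting error. The fibrillar share is 0.163% in uninduced MEF and 0.0947% in uninduced EB.

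The positions themselves differed too. Of the 348 uninduced MEF summits near collagen genes, 114 (32.8%) had an uninduced EB summit within 250 bp, against 39.2% of the whole MEF list. At Col1a2 the MEF list held a start summit pair at −0.098 and 0.055 kb (deposited scores 20.5 and 28.3), a group between −17.1 and −15.5 kb led by a summit of score 43.7, and a pair at −48.9 and −47.8 kb. A far-upstream enhancer that is active in fibroblasts is known for mouse Col1a2. The EB list held a start summit at −0.151 kb (score 64.7) and 2 summits behind the gene, at 39.2 and 45.0 kb, and none of the upstream ones. The score is the authors' −log10 q value, which grows with depth, and it serves only to rank summits within a list. At Col6a3 the strongest MEF summit lay 8.996 kb into the gene (score 48.1) and the start carried summits at 0.052 and 0.604 kb, whereas the 1 EB summit lay at 68.0 kb (score 42.7). Col13a1 was the reverse, with EB summits at the start (−0.089, 0.442 and 0.719 kb) and at 42.2, 49.7 and 72.7 kb, and 2 MEF summits, at −1.46 and 140.2 kb, neither at the start. Of 32 collagen genes with an annotated start, 18 had a summit within 1 kb of it in MEF, against 57.1% of all genes, and 24 in EB, against 67.4%. Of the 8 starts with no EB summit 4 had one in MEF, those of Col3a1, Col6a1, Col6a3 and Col10a1, against 4.55% of all genes. Of the 24 EB starts, 10 were absent in MEF, against 17.5% of all genes: Col4a4, Col4a6, Col5a3, Col7a1, Col8a2, Col9a1, Col9a2, Col13a1, Col18a1 and Col24a1.

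**Figure D2:**
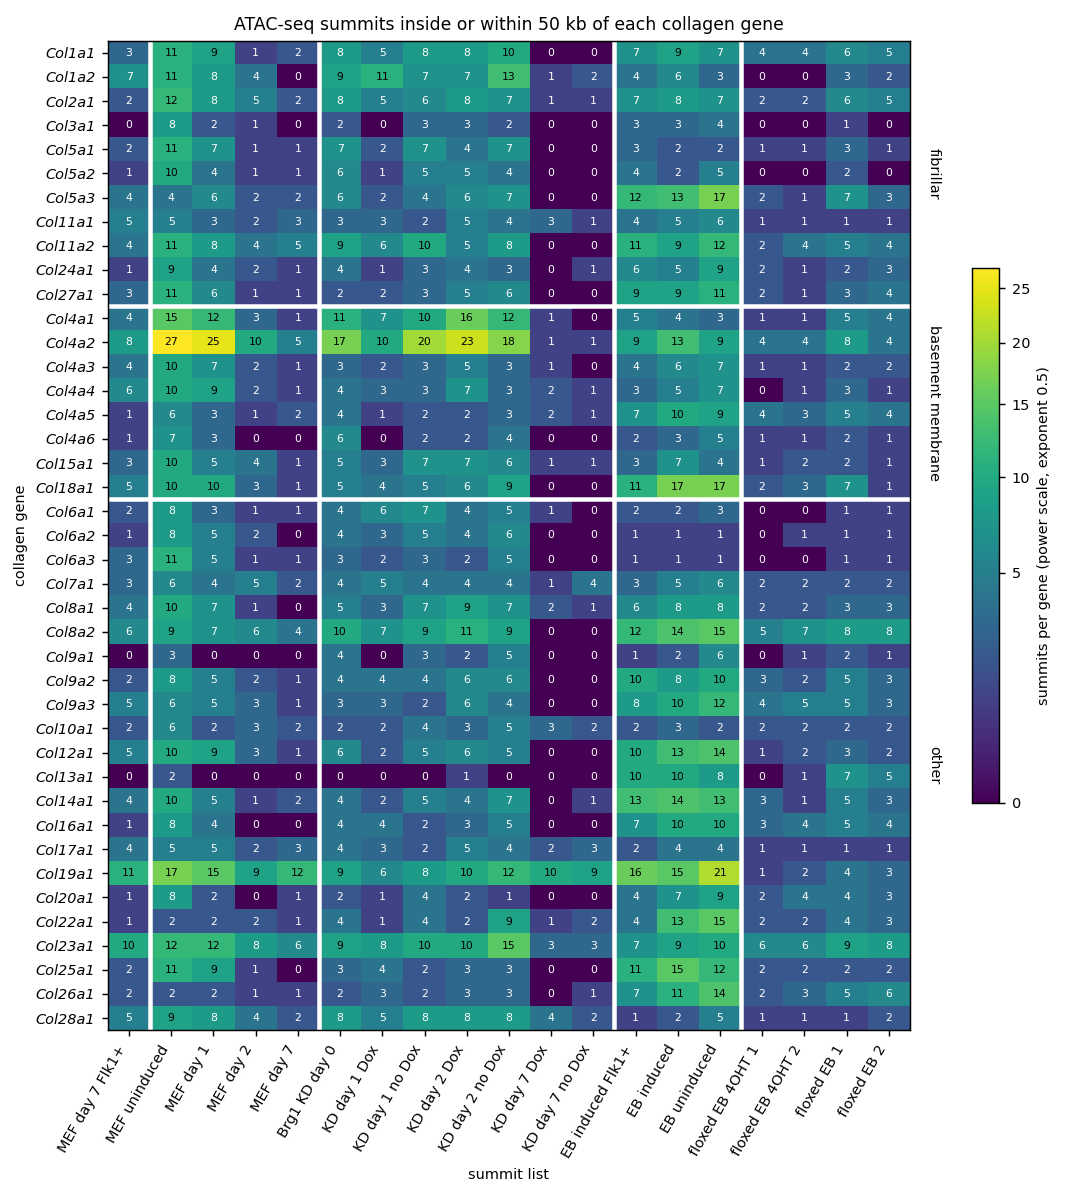
Number of summits inside or within 50 kb of each of the 41 collagen genes (rows, by class) in each of the 19 summit lists (columns), printed in the cell and shown by colour on a power scale. Col4a2 has 5 summits in unsorted day 7 MEF, against 27 in uninduced MEF, and Col13a1 has 0 to 2 in the MEF and knockdown lists and 8 to 10 in the EB lists without the floxed allele.

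Induction of Etv2 in MEF was followed by fewer summits around nearly every collagen gene. This held at 35 of 41 genes on day 1, against 52.6% of all genes. It held at 40 on day 2, against 77.1%, and at 41 on day 7, against 80.5%. These shares of all genes include any gene with no uninduced summit, which cannot have fewer, whereas no collagen gene lacked one. In number the difference was deepest at Col4a2 and Col4a1 on days 2 and 7, and on day 1 at Col3a1, Col5a2, Col6a3 and Col20a1. Col3a1 had 8, 2, 1 and 0 summits on days 0, 1, 2 and 7, and Col5a2 had 10, 4, 1 and 1. Both met the 2-fold rule given above from day 1 on. Col6a3 had 11, 5, 1 and 1. Col1a1 had 11, 9, 1 and 2 and Col1a2 had 11, 8, 4 and 0, so the type I genes were little below the uninduced list on day 1 and far below it on day 2. Col2a1 had 12, 8, 5 and 2. Col4a1 had 15, 12, 3 and 1, and Col4a2, which encodes the other chain of the common type IV trimer, had 27, 25, 10 and 5. Col15a1 had 10, 5, 4 and 1 and Col18a1 had 10, 10, 3 and 1. Col25a1, a transmembrane collagen of neurons, had 11, 9, 1 and 0, and Col20a1 had 8, 2, 0 and 1. Col5a3 was the only gene with more summits on day 1 than before, with 4, 6, 2 and 2. A list pools all cells of a sample, so fewer cells with an open site and weaker opening in each cell cannot be told apart. The uninduced list is of day 0, and MEF with no knockdown have no later list without doxycycline. Induction and days in culture therefore cannot be told apart either. In knockdown MEF without doxycycline the lists held 36730, 35635, 44493 and 11188 summits on days 0, 1, 2 and 7.

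On day 1, 12 of 37 collagen genes tested were lower, against 11.7% of all genes, and 0 were higher, against 1.54%. On day 2, 33 of 37 were lower, against 62.9%, with 0 higher, against 0.461%, and on day 7 it was 34 of 37, against 82.1%, with 0 higher, against 0.524%. The median difference from the uninduced list was −3, −7 and −8 summits for the collagen genes tested on days 1, 2 and 7, against −1, −4 and −5 for all genes tested. Collagen genes started higher, with a median of 9 summits in uninduced MEF, against 5 for all genes. On day 7 both medians were 1. More summits could thus be lost at collagen genes, and the part of the starting count in the differences and calls was not tested. All 11 fibrillar and 8 basement membrane genes were lower on day 2, and 14 of 18 other genes were. The day 1, 2 and 7 lists hold 50015, 26217 and 18418 summits, against 62028 in the uninduced list, with which each of them is compared. With both lists cut to equal length, 5 of 37 were lower on day 1 (Col3a1, Col4a6, Col6a1, Col10a1 and Col20a1), against 4.83% of all genes, with 0 higher, against 4.41%. On day 2, 11 of 21 were lower at equal length, against 12.6%, and these were Col1a1, Col5a1, Col5a2, Col5a3, Col4a1, Col4a3, Col4a4, Col8a1, Col12a1, Col17a1 and Col25a1, with 0 higher, against 8.37%. On day 7, 3 of 8 were lower at equal length (Col1a2, Col8a1 and Col12a1), against 23.7%, and 1, Col19a1, was higher, against 13.8%. The share of list summits near collagen genes was 0.561%, 0.482% (0.423% to 0.547%), 0.381% (0.310% to 0.464%) and 0.380% (0.296% to 0.480%) on days 0, 1, 2 and 7, so that on days 2 and 7 its interval lay below that of the uninduced list. These intervals cover counting error only. Col19a1 gave 9 of the 100 collagen summits on day 2 and 12 of the 70 on day 7. Without its block of very high scores, described below, it had 2 and 1. For fibrillar genes the share was 0.163%, 0.128%, 0.0915% and 0.0977%.

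**Figure D3:**
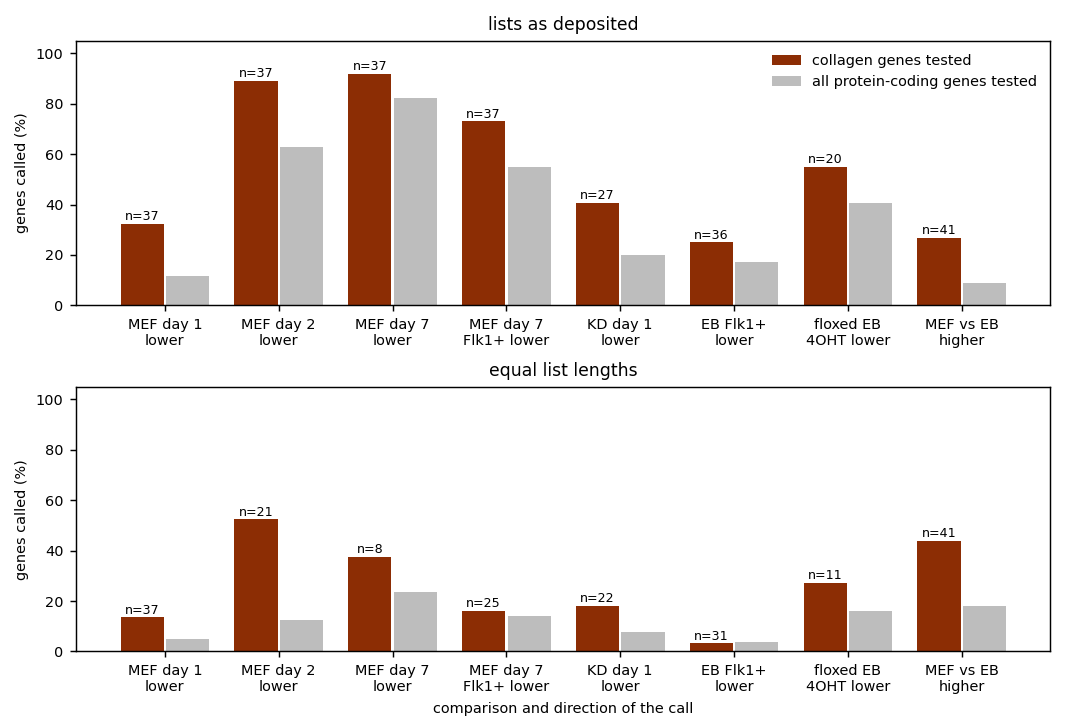
Percent of genes called (y axis) among the collagen genes tested and among all protein-coding genes tested, for 8 comparisons (x axis), with lists as deposited (top) and cut to equal length (bottom). Numbers above bars are collagen genes tested. On MEF day 2 the collagen bar stands above the bar of all genes in both panels, at 89.2% against 62.9% and at 52.4% against 12.6%.

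Col19a1 needs a separate account. Its counts in MEF were 17, 15, 9 and 12 on days 0, 1, 2 and 7, and all 19 lists held summits with scores of 1000 or more in a block upstream of its start, between −28.4 and −24.6 kb. Without such summits it had 12, 6, 2 and 1, like other collagen genes, and the cause of the block was not tested. No other collagen window held a summit of that score. The call of Col19a1 as higher on day 7 at equal length, given above, includes the block.

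Summit by summit, 141 of the 348 uninduced MEF summits near collagen genes (40.5%) had no day 1 summit within 250 bp, against 37.6% of the whole list. The part without a partner was 73.0% on day 2, against 66.7%, and 81.9% on day 7, against 79.7%. Of 101 fibrillar summits 74.3% had no day 2 partner, and of 79 basement membrane summits 72.2%. Positions shared with EB lasted longer, and in this the collagen genes did as the whole list did. Of 114 MEF summits also found in uninduced EB, 48.2% (38.8% to 57.8%) had a partner on day 2, against 16.7% (12.1% to 22.1%) of the 234 not found in EB, and the whole list gave 56.8% and 18.1%. Split by place, of 27 uninduced MEF summits within 1 kb of a collagen start, 77.8%, 44.4% and 18.5% had a partner on days 1, 2 and 7. Of 57 within 1 kb of the start of another gene, 84.2%, 57.9% and 54.4% did, and of the 264 elsewhere 52.3%, 18.6% and 10.2%. For the whole list, 82.4%, 61.5% and 45.5% of the summits at any start had a partner on days 1, 2 and 7. On day 7 the interval of the collagen starts (6.30% to 38.1%) lay below that of the neighbouring starts (40.7% to 67.6%) and below 45.5%. The 27 summits lie at 18 starts, several at some of them, and Col4a1 and Col4a2 share theirs, so they are not independent. The intervals cover counting error within 1 list per group only, and the difference was not tested.

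Start by start, 2 of 18 collagen starts with an uninduced MEF summit had none on day 1, Col10a1 and Col15a1, against 5.34% of all genes. On day 2 it was 8 of 18, against 21.3%: Col4a5, Col6a1, Col6a3, Col10a1, Col15a1, Col16a1, Col25a1 and Col27a1. On day 7 it was 13 of 18, against 38.1%, and the 5 that still held a summit were Col4a1, Col4a2, Col5a1, Col11a1 and Col23a1. Col4a1 and Col4a2 are transcribed away from each other from adjacent starts, and their shared summit was found in all 5 MEF lists, all 3 EB lists and all 4 floxed lists, as well as in 6 of 7 knockdown lists. Col3a1, whose printed promoter has a TATAAA match, had its start summit in MEF on days 0, 1 and 2 and in no EB or floxed list.

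**Figure D4:**
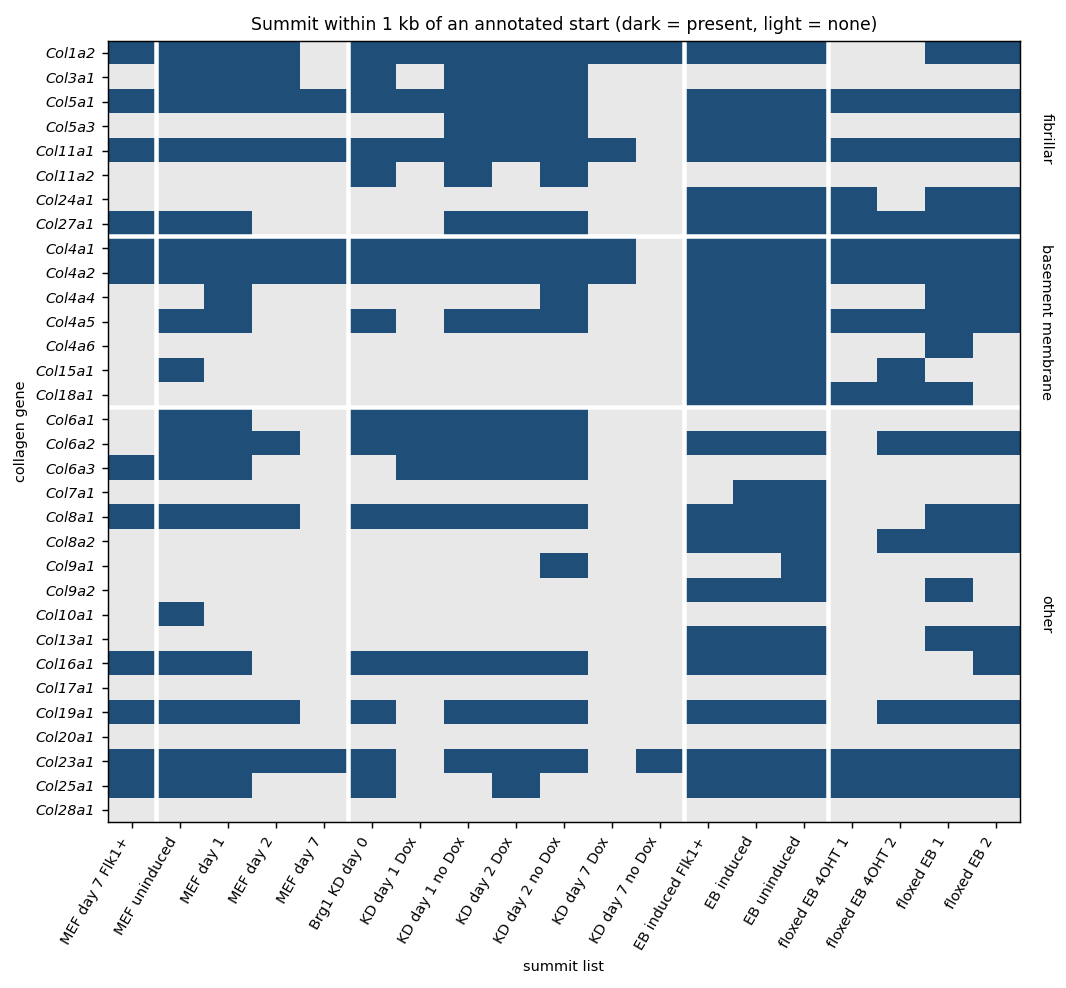
Presence of a summit within 1 kb of an annotated start for the 32 collagen genes with one (rows, by class) in the 19 lists (columns), dark where present. The row of Col4a1 is dark in all lists but the uninduced day 7 knockdown list, and 5 rows are dark in unsorted day 7 MEF.

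Flk1-positive MEF held more collagen summits than unsorted day 7 MEF, most visibly at Col1a2. That gene had 7 summits in Flk1-positive and 0 in unsorted cells. They lay at 0.091 kb from the start, at −17.1 kb and at −48.6, −48.0 and −47.8 kb, where uninduced MEF had summits close by, at 0.739 kb, and at −21.6 kb, which no other list held. Col4a4, a type IV chain of specialised membranes, had 6 summits in Flk1-positive and 1 in unsorted cells. Col18a1 had 5 and 1, and Col12a1, a fibril-associated collagen, had 5 and 1. Col4a1 had 4 and 1, Col4a2 had 8 and 5, and Col3a1 had 0 in both. Of 18 genes tested, 11 were higher in the Flk1-positive list, against 47.8% of all genes, and 0 were lower, against 2.19%. The Flk1-positive list holds 29520 summits and the unsorted list 18418, and at equal length 0 of 5 genes tested were higher, against 19.3%, and 0 were lower, against 12.1%. Col1a2 had under 4 summits in both lists then and could not be called. The collagen share was 0.451% (0.377% to 0.534%) in Flk1-positive and 0.380% (0.296% to 0.480%) in unsorted cells, with overlapping intervals. Of 27 starts with no summit in unsorted cells, 7 held one in Flk1-positive cells, against 20.2% of all genes: Col1a2, Col6a3, Col8a1, Col16a1, Col19a1, Col25a1 and Col27a1. The 5 starts found in unsorted cells were found in Flk1-positive cells too.

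Against uninduced MEF, the Flk1-positive list was lower at 27 of 37 collagen genes, against 54.9% of all genes, and higher at 0, against 0.658%. The deepest differences were at Col4a2, with 8 summits in Flk1-positive and 27 in uninduced MEF, at Col4a1 with 4 and 15 and at Col2a1 with 2 and 12, followed by equal differences at Col5a1 and Col25a1, each with 2 and 11, and at Col5a2 with 1 and 10. At equal length 4 of 25 were lower, Col2a1, Col5a1, Col5a2 and Col25a1, against 14.1%, and 2, Col9a3 and Col14a1, were higher, against 8.58%. The share of the list near collagen genes was 0.451% (0.377% to 0.534%) in Flk1-positive MEF and 0.561% (0.504% to 0.623%) in uninduced MEF, and these intervals overlap. Of the uninduced summits near collagen genes 70.1% had no Flk1-positive partner, against 64.6% of the whole list. A start summit was absent at 6 of 18 genes (Col3a1, Col4a5, Col6a1, Col6a2, Col10a1 and Col15a1), against 16.8%.

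**Figure D5:**
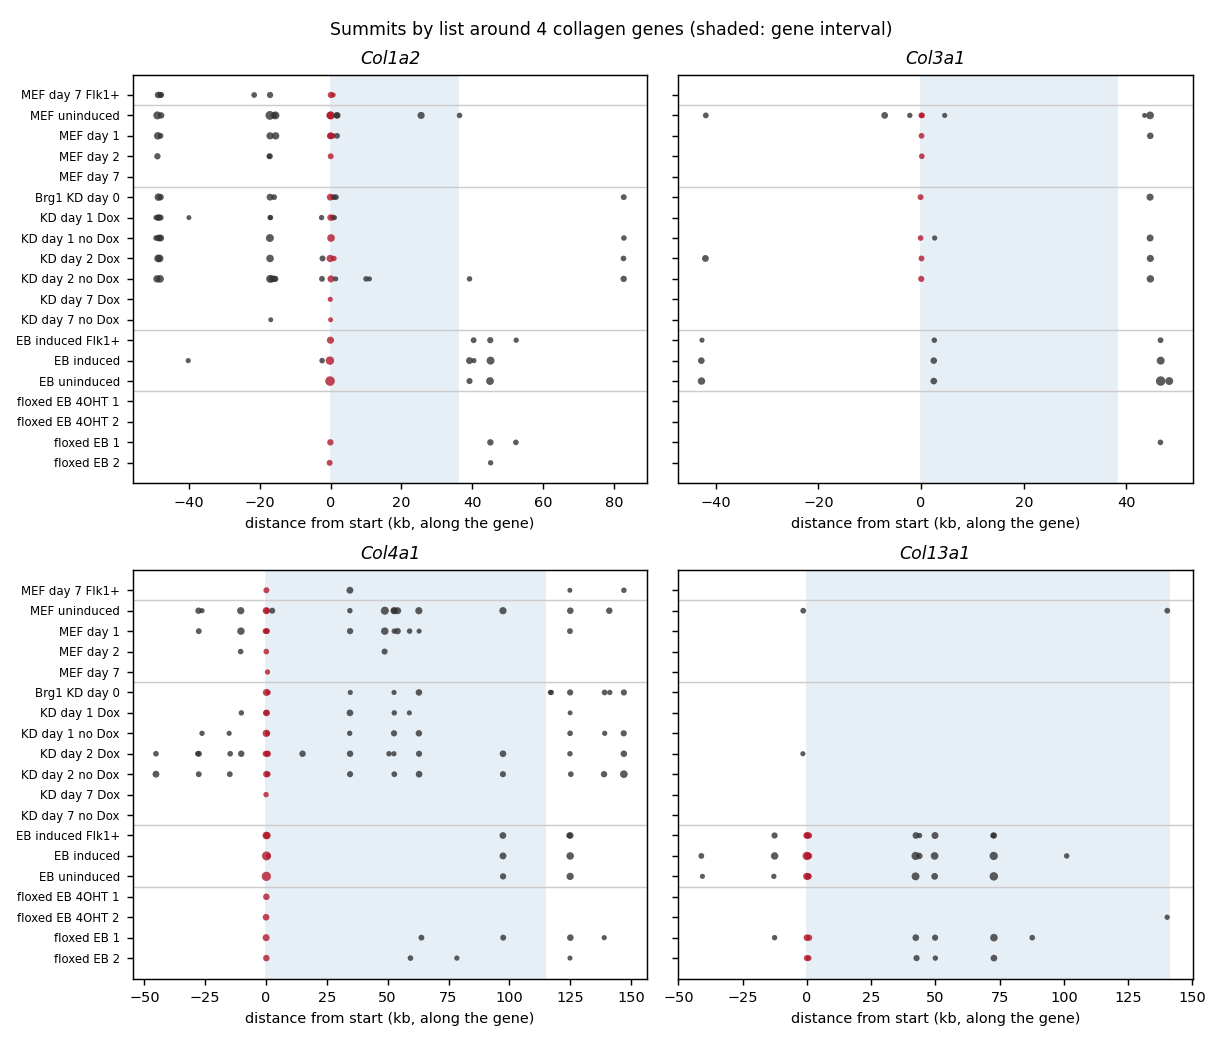
Summits of each list (rows) by distance from the annotated start along the gene (x axis, kb) for Col1a2, Col3a1, Col4a1 and Col13a1. Red points lie within 1 kb of the start, larger points have higher deposited scores, and the shaded span is the gene interval. Upstream summits of Col1a2 near −17 and −48 kb are seen in MEF lists and not in EB lists, and Col13a1 is densest in EB lists.

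Chaining summits of all lists that lie within 250 bp of their neighbour gave 734 regions around the collagen genes. Of these, 332 were found only in MEF and knockdown lists, 257 only in EB lists, and 285 in a single list. Of 304 regions with an uninduced MEF summit, 180 were also in the day 1 list, 81 in the day 2 list, 53 in the day 7 list and 93 (30.6%) in the Flk1-positive list, and 120 were in no induced MEF list. Of those 120, 109 lay away from any annotated start. Regions were chained around collagen genes only, so no share over all genes stands beside these counts. Counted by summit, 81.9% of the uninduced MEF summits near collagen genes had no day 7 partner, against 79.7% of the whole list. No uninduced EB partner was found for 67.2%, against 60.8%. Of 40 regions held by all 5 MEF lists, 22 lay at the start of another gene, 4 at collagen starts (Col4a1 with Col4a2, Col5a1, Col11a1 and Col23a1) and 14 elsewhere. One of the 14 lay inside Col4a2, at chr8:11392800-11393734, and was held by 12 lists. The 8 regions held by all 19 lists included no collagen start, and 5 of them lay at the starts of the neighbours Nt5dc1, Phykpl, Sfr1, Tgfbr1 and Mios. The 1 summit that Col15a1 had in unsorted day 7 MEF was the one at Tgfbr1. Of 133 Flk1-positive MEF summits near collagen genes, 19.5% had no uninduced MEF partner, against 24.6% of the whole list. Of 22 regions in Flk1-positive MEF and not in uninduced MEF, 8 were in that list only and 1 lay at a collagen start (Col1a2). The 4 that Flk1-positive EB also held were in uninduced EB as well.

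In MEF with Brg1 knockdown, doxycycline was followed on day 1 by fewer summits at part of the collagen genes and on day 2 by little net difference. Col4a2 had 10 summits with and 20 without doxycycline on day 1, Col5a1 had 2 and 7, Col15a1 had 3 and 7, and Col3a1 had 0 and 3. Col1a2 went the other way in number, with 11 with and 7 without, and its start and −17 and −48 kb summits were in both lists. The highest score among the 11 was 9.94. The best summit near −17 kb ranked 22514 of 26882 with doxycycline and 4569 of 35635 without. The start summit ranked 9465 with and 6252 without. Col25a1 had 4 with and 2 without, as did Col16a1, a fibril-associated collagen. On day 2, Col4a2 had 23 with and 18 without doxycycline, Col4a1 had 16 and 12, Col1a2 had 7 and 13 and Col22a1 had 2 and 9. On day 1, 11 of 27 genes tested were lower, against 20% of all genes, and 2 were higher, against 2.19%. On day 2, 4 of 35 were lower, against 9.63%, and 1, Col4a4 with 7 and 3, was higher, against 4.49%. At equal length 4 of 22 were lower on day 1, against 7.85%, and 3 higher (Col1a2, Col16a1 and Col25a1), against 6.53%. On day 2, 3 of 34 were lower, against 5.13%, and 2 higher (Col4a3 and Col4a4), against 7.54%. On day 7 the lists with and without doxycycline hold 13644 and 11188 summits, and 23 of the 41 genes had no summit with doxycycline and 23 had none without it. There 3 genes could be tested, of which Col7a1, the anchoring fibril collagen, was lower, with 1 and 4, and Col28a1 was higher, with 4 and 2, against 12.5% of all genes lower and 28.6% higher. At equal length 1 of 3 was lower, against 27.3%, and 1 higher, against 17.7%. The fibrillar share of the list was 0.0366% with and 0.0447% without doxycycline on day 7, 0.156% and 0.157% on day 2, and 0.171% on day 0. The day 7 shares rest on 5 fibrillar summits in each list. Their intervals were 0.0119% to 0.0855% with and 0.0145% to 0.104% without doxycycline, too wide to rank the 2 lists. Knockdown lists and those without knockdown also differ in how scores are written and may have been processed differently. A difference between the 2 sets therefore cannot be told apart from processing.

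In EB the induction changed few collagen genes. Col1a2 had 6 summits in induced and 3 in uninduced EB, Col4a2 had 13 and 9, and Col15a1 had 7 and 4. Col9a1, a fibril-associated cartilage chain, had 2 and 6, and Col5a3 had 13 and 17. Of 36 genes tested 3 were lower, against 4.81% of all genes, and 1, Col1a2, was higher, against 1.87%. The Col1a2 summits that uninduced EB lacked lay at −40.15, −2.39 and 40.43 kb and ranked 74227, 65796 and 73983 of 77987. Its start summit ranked 19234 in induced EB and 10434 of 85498 in uninduced EB. At equal length 3 were lower, against 2.9%, and 2, Col1a2 and Col15a1, were higher, against 3.06%. Of 333 uninduced EB summits near collagen genes 30.0% had no induced partner, against 30.4% of the whole list. In Flk1-positive EB, 9 of 36 genes were lower than in uninduced EB, against 17.3%, and 0 were higher, against 0.722%. Of these, 7 were other collagens, 2 were basement membrane genes and 0 of 10 tested were fibrillar. Col22a1 had 4 summits in Flk1-positive and 15 in uninduced EB, Col26a1 had 7 and 14, Col18a1 had 11 and 17, and Col13a1 had 10 and 8. At equal length 1 of 31, Col22a1, was lower, against 3.77%, and 2 were higher, against 4.99%: Col1a2, with 4 in Flk1-positive and 2 in uninduced EB, and Col13a1, with 10 and 5. Summits without a Flk1-positive partner made up 40.2% near collagen genes, against 46.1% in the whole list, and 30.9% (21.1% to 42.1%) near fibrillar genes, an interval below the whole-list value. That interval covers counting error only and takes neighbouring summits as independent. The fibrillar share of the list was 0.119% in Flk1-positive, 0.0898% in induced and 0.0947% in uninduced EB, with overlapping intervals. Regions in both induced EB lists and not in the uninduced one numbered 16, of which 3 were near Col18a1, 3 near Col25a1 and 2 near Col13a1. Counted by summit, 21.6% of induced EB summits near collagen genes had no uninduced partner, against 21.9% of the whole list. For Flk1-positive EB it was 16.7%, against 18.7%. Of the 24 starts held in uninduced EB, 2 (Col7a1 and Col9a1) were absent in Flk1-positive EB, against 3.68% of all genes, and 1 (Col9a1) in induced EB, against 1.69%.

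In Brg1-floxed EB at day 4, both lists with 4OHT had fewer summits than both lists without it at Col13a1, Col1a2, Col5a3, Col4a1 and Col2a1. Col13a1 had 0 and 1 summits in the lists with 4OHT and 7 and 5 in those without, and its start summit was in neither and in both. Col1a2 had 0 and 0 with 4OHT and 3 and 2 without, too few to be called. Col5a3 had 2 and 1 with 4OHT, and 7 and 3 without. Col4a1 had 1 and 1 with 4OHT, both at its start, and 5 and 4 without. Col2a1 had 2 and 2 with 4OHT, and 6 and 5 without. Col4a2, by contrast, had 4 and 4 with 4OHT and 8 and 4 without, Col18a1 had 2 and 3 with it and 7 and 1 without, and Col9a3 had 4 and 5 with it and 5 and 3 without, so these groups touched or overlapped. A gene was called here when both lists of one group lay beyond both of the other and 1 list held at least 4. By that rule 11 of 20 genes were lower, against 40.7% of all genes, and 0 were higher, against 1.11%. The lower genes were 4 of 5 fibrillar, 1 of 4 basement membrane and 6 of 11 others. The lists with 4OHT are shorter, with 17946 and 20229 summits, against 31436 and 23823, and at equal length 3 of 11 were lower, Col2a1, Col26a1 and Col27a1, against 16.2%, and 2, Col4a2 and Col9a3, were higher, against 12.7%. Col13a1, Col4a1 and Col5a3 had under 4 summits in every list then and could not be called. Of 16 starts with a summit in both lists without 4OHT, 4 had none in either list with it, against 4.58% of all genes. They were Col1a2, Col4a4, Col8a1 and Col13a1, and 8 starts kept a summit in both. Without replicate 2 of the group without 4OHT, 17 of 19 genes were lower, against 72.6% of all genes.

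Among genes for making, fixing and binding collagen, 58 in a list chosen by role, the shares lower in day 7 and in Flk1-positive MEF than in uninduced MEF were near those of all genes. On day 1, 9 of 54 tested (16.7%) were lower in induced MEF, against 11.7% of all genes, and on day 2, 39 of 54 (72.2%), against 62.9%, with 0 higher on either day. On day 1 Plod3, a lysyl hydroxylase, had 5 summits, against 13 in uninduced MEF, and Bgn, a small proteoglycan that binds fibrils, had 3 against 10, while Mmp14, a membrane-bound collagenase, had 12 against 8. On day 2 Ddr2, a receptor for fibrillar collagen, had 3 against 16, and Lama2, a laminin chain, had 3 against 15. On day 7, 44 of 54 (81.5%) were lower, against 82.1%. In Flk1-positive MEF 30 of 54 (55.6%) were lower than in uninduced MEF, against 54.9%, with Lama2 at 1 against 15 and Hspg2 (perlecan) at 1 against 11. Against unsorted day 7 MEF, Flk1-positive MEF was higher at 17 of 34 (50%), against 47.8%, with Nid1 (nidogen, a linker of basement membranes) at 13 in Flk1-positive and 3 in unsorted cells. In induced EB 2 of 55 (3.64%) were lower than in uninduced EB, against 4.81%. In floxed EB with 4OHT 23 of 33 (69.7%) were lower, against 40.7%, with Hspg2 at a mean of 3 with and 7.5 without. Uninduced MEF was higher than uninduced EB at 8 of 58 (13.8%), against 8.68%, and lower at 6 (10.3%), against 25.2%, with Nid1 at 16 in MEF and 9 in EB, and Adamts3, a procollagen protease, at 0 in MEF and 10 in EB.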

How the data were processed

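ATAC-seq reads were aligned with Bowtie2 2.2.4 to mm10 and peaks called with MACS2, with HOMER also named, per the submitters' processing notes. How reads were trimmed, how duplicate or mitochondrial reads, the Tn5 offset and blacklisted regions were treated, and how replicates were combined, is not given in the sources used here. The deposited score of a summit is the −log10 of the caller's q value, at least 1.30 in every list (a q value of 0.05). Scores in the iHA-Etv2 MEF and D25 EB lists are written with a fixed number of decimals and in the knockdown and floxed lists with a varying one. Floxed lists have 1 summit per peak. These sets may thus have been processed differently, which the sources used here do not state. The numbers of reads were not analysed here. The precision of a count is limited by the length of its list, 11188 to 85498 summits, which stands beside it. Of 34 samples 30 share 15 lists and 4 have their own.

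Summits on chromosomes 1 to 19 and X were counted in Python 3.11.15 (numpy 2.4.6, pandas 2.3.3, scipy 1.17.1, matplotlib 3.10.9). Gene intervals came from RefSeq on GRCm38.p6, the assembly of mm10, and starts and strands from its promoter table. That table has no starts on chromosome 18, which was left out of the split by place. A partner is a summit of the other list within 250 bp. Counting and calling were tested on simulated lists. The members and gene lists were chosen with earlier results of these data known. Any member could be named, with full values for Col1a1, Col1a2, Col2a1, Col3a1, Col4a1, Col4a2, Col5a2, Col6a3, Col15a1 and Col18a1 and for the 4 highest and 4 lowest differences per comparison. Alternatives were a 10 kb window, the gene interval, lists of equal length, a score of at least 10, peaks in place of summits, a minimum of 2 summits, chaining at 100 or 500 bp, each floxed replicate left out, a replicate block, and, added after seeing the data, removal of summits scoring 1000 or more, a crossed block, and the block with equal lengths.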

Additional observations from a re-analysis of the deposited data

Results flagged for a closer look

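At 3 collagen genes the comparisons of the same day with and without Brg1 knockdown went opposite ways. Their references differ. Knockdown lists are set against a list of the same day without doxycycline, and lists with no knockdown against the uninduced list of day 0. Days in culture thus enter only the latter. Each group has 1 list, so the difference was not tested, and the 2 sets may have been processed differently. Col16a1 on day 1 had 4 summits with and 2 without doxycycline under knockdown, and 4 with and 8 without in MEF without knockdown, which makes the differences 6 summits apart. Col4a4 on day 2 had 7 and 3 under knockdown, and 2 and 10 without it, 12 summits apart. Col28a1 on day 7 had 4 and 2 under knockdown, and 2 and 9 without it, 9 summits apart.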

How the results depend on the processing

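The counts of genes called moved with list length, the score limit and the window. Shares in brackets are those called among all genes under the same setting. With lists of equal length the lower genes numbered 5 on MEF day 1, 11 on day 2, 3 on day 7 and 4 in Flk1-positive MEF, 4 on knockdown day 1, 1 in Flk1-positive EB and 3 in floxed EB, and higher genes 0 for Flk1-positive against unsorted MEF and 18 for MEF against EB, with the numbers tested and the shares in the text above. A 10 kb window gave 5 of 6 higher for Flk1-positive against unsorted MEF (all genes 57.1%), and lower genes at 7 of 12 on knockdown day 1 (28.4%), 5 of 27 in induced EB (6.92%) and 4 of 5 in floxed EB (45.3%), with 0 tested on knockdown day 7. It gave an uninduced MEF share of 0.351%, and the gene interval alone gave 0.285%. A score of at least 10 gave lower genes at 22 of 23 on MEF day 7 (96.7%), 1 of 3, 2 of 9 and 0 of 1 on knockdown days 1, 2 and 7 (54.9%, 12.9% and 13.2%), 15 of 26 in Flk1-positive EB (33%) and 0 of 1 in floxed EB (15.7%), and 0 of 1 higher for Flk1-positive against unsorted MEF (81.7%). Counting peaks left 0 tested on knockdown day 7. A minimum of 2 summits gave 3 of 12 lower there (21.8%) and 19 of 31 higher for Flk1-positive against unsorted MEF (48.3%). Of single genes, Col16a1 on knockdown day 1 turned to a difference of −2 with a score of at least 10, and Col26a1 in Flk1-positive EB to 1 with equal lengths. The other 226 values of named genes kept direction and call and 64 lost the call. Where lists were not cut to length, the cause was not tested.

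Leaving out one floxed list at a time gave 8 to 17 lower genes, 8 of 14 without replicate 1 (49.2%) and 17 of 19 without replicate 2 (72.6%) of the group without 4OHT. With the replicate block there were 14 of 20 (45.6%), with the block and equal lengths 4 of 11, and with crossed numbers 13 of 20 (49.9%). Same-numbered lists deviated from their group means with a correlation of −0.106 across genes, so the numbers are not shown to pair samples. No paired analysis was possible for the other comparisons because both samples of a group share 1 list. Chaining at 100 or 500 bp gave 27.8% or 32.3% of uninduced MEF regions also in Flk1-positive MEF, and removing summits scoring 1000 or more moved no count of genes by over 1.5 times.

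Precision is limited by list length, which differs up to several-fold between the lists compared. The pooled lists carry no replicate error, windows of neighbouring collagen genes overlap, and summits near other genes are counted.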
